A study of Mus musculus with 4 samples.

Results

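The genes described here are those of the potassium channel family, taken as every mouse gene whose symbol begins with Kcn followed by a letter code and a number. They were found through the RefSeq accession that the array gives for each probe. The array held 154 probes for 97 such genes, out of 56605 probes that are not controls and 22911 genes with a symbol. The 97 genes comprise 40 voltage-gated pore subunits and 12 auxiliary subunits of voltage-gated channels. A further 12 are grouped as subunits of calcium- or sodium-activated channels, with the related pore Kcnu1 counted among them. The rest are 15 inward rectifiers, 14 two-pore-domain channels and 4 noncoding transcripts.

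Potassium channels let potassium leave the cell along its gradient and so set the resting membrane potential, shape action potentials in excitable cells and take part in the regulation of cell volume. The pore is built from pore subunits that respond to voltage (Kcna to Kcnd, Kcnh, Kcnq), to intracellular calcium or sodium (Kcnma1, Kcnn, Kcnt), to nucleotides and other ligands (inward rectifiers, Kcnj), or that conduct at rest (two-pore-domain channels, Kcnk). Auxiliary subunits such as Kcnab, Kcne, Kcnip and Kcnmb carry no pore of their own and change how their partner opens and closes. In epithelial cells these channels serve ion transport, volume control and the cell cycle, whereas many members are known chiefly from neurons and muscle.

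The comparison is between ID8G, the ovarian cancer line ID8 of the mouse with GFP introduced by a retrovirus, and GO2, which was derived from ID8G by 2 successive passages through the omentum of young female C57BL/6J mice with an intact immune system. The GO2 cells were sorted as GFP-positive, CD45-negative cells of the dissociated omentum and form 1 selected line, and both lines express GFP and grew in the same medium without further treatment. RNA of each line was hybridized to 2 Agilent arrays, and the question is which channel genes differ between the selected and the parental line. Nothing in the sample descriptions says that the arrays of a line came from separate cultures, so the p-values measure the spread between these arrays, which may be technical.

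A level is the log2 intensity of a probe relative to the 75th percentile of its array, and all differences are GO2 minus ID8G on the log2 scale. A probe was compared when the scanner software marked its signal as well above background on both arrays of 1 line or of both, and was called higher or lower at a limma adjusted p below 0.05 with a difference of at least 1, that is 2-fold. Of the 154 potassium channel probes, 37 probes for 29 genes could be compared. A further 10 probes were well above background on at most 1 array of a line, and 107 on no array. For 59 of the 97 genes, no probe was well above background on any of the 4 arrays. In RNA from whole cultures, fewer cells that express a gene and less RNA per cell cannot be told apart.

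Most potassium channel probes that could be compared were not called (28 of 37), and the called ones, which belong to 8 of the 97 genes, lay in both directions. In GO2 cells 5 probes (Kcnmb4 with both of its probes, its noncoding neighbor Kcnmb4os2, Kcnab3 and Kcnk5) were called higher and 4 probes (Kcnj8, Kcnh1, Kcnt1 and Kcnc1) were called lower. Over all 28368 probes compared, 7.84% were called, 4.5% as higher and 3.34% as lower. The 9 called potassium channel probes cannot be read against that share directly, because 7 of them are among the 11 channel probes that were well above background on both arrays of 1 line but not on both of the other. Over the whole array 40.8% of such probes were called, and since the filter itself favors a difference in them, nothing is read from the 7. Among the 26 potassium channel probes well above background on all 4 arrays, 2 were called (Kcnab3 and Kcnk5), where 4.87% of all such probes were called. The median difference of the 37 probes was -0.03, and it was -0.02 over all probes compared, with median absolute differences of 0.274 and 0.203. Without the 2-fold minimum 14 of the 37 probes passed the adjusted p, where 35.9% of all probes did, and the arrays of the lines did not overlap for 29 of the 37, where this held for 73.6% of all probes.

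**Figure D1:**
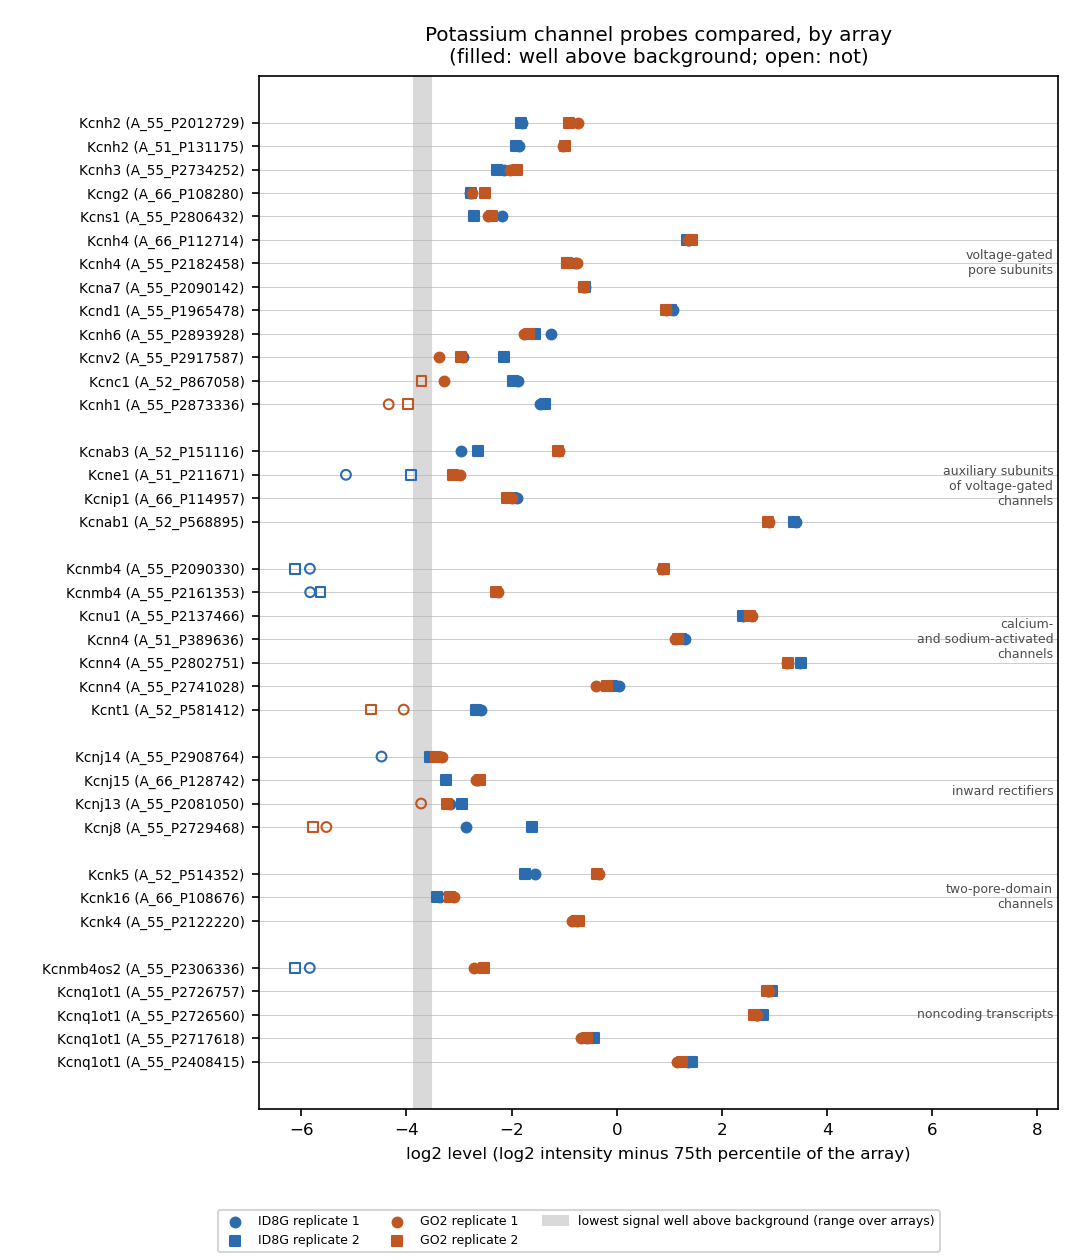
Log2 level (relative to the 75th percentile of each array) of 36 of the 37 potassium channel probes compared, 1 row per probe, with 1 point for each of the 2 ID8G arrays (blue) and 2 GO2 arrays (orange), circles for replicate 1 and squares for replicate 2. Open points were not well above background, and the gray band spans the lowest such signal on each array, from -3.85 to -3.53. Both GO2 points of Kcnmb4 and Kcnmb4os2 lie right of the band and both ID8G points left of it, while most other rows have all 4 points close together.

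Kcnmb4 encodes an auxiliary (beta) subunit of the large-conductance calcium-activated potassium channel, known from brain, where it alters the calcium sensitivity and gating of the pore. Its probe A_55_P2090330 had levels of -5.84 and -6.12 on the ID8G arrays and of 0.85 and 0.89 on the GO2 arrays. Neither ID8G signal was well above background, and both GO2 arrays lay far above them. Kcnmb4 was therefore at least 23.4-fold higher in GO2 cells (mean levels -5.98 ± 0.20 and 0.87 ± 0.03, SD, n = 2 each, limma adjusted p = 0.000182). A bound takes the lowest signal well above background as the limit, and it is approximate, since some signals not well above background were higher. Here and wherever a fold is given as a bound, the p-value belongs to the fitted difference. That difference uses the dim signals as measured, so the p-value does not test the bound. The ID8G levels of A_55_P2090330 are close to those of probes not well above background on any array, such as Kcne4 at -5.83 and -6.12. Its ID8G SD of 0.20, which also enters the p-value, thus describes the background and not the spread of Kcnmb4. The other probe, A_55_P2161353, had levels of -5.83 and -5.64 in ID8G cells and of -2.26 and -2.30 in GO2 cells. It points the same way with a lower bound of 2.64-fold (limma adjusted p = 0.000248), so the probes share the direction and differ in the bound they allow. With normexp background correction, which models the background of each array, the differences were 3.99 and 1.33.

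Kcnmb4os2 is a noncoding transcript annotated on the opposite strand at the start of Kcnmb4. Its probe had levels of -5.84 and -6.12 in ID8G cells and of -2.71 and -2.52 in GO2 cells. It was well above background in GO2 cells alone, at least 2.09-fold higher there (limma adjusted p = 0.000481). The other transcript annotated opposite to the gene, Kcnmb4os1, had levels between -5.99 and -5.68 on the 4 arrays and was not well above background on any of them. Of the pair, Kcnmb4os2 alone was well above background in the line in which Kcnmb4 was.

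The windows around the starts of Kcnmb4 and Kcnmb4os2 are shown because these starts lie close to each other. Both transcripts were compared through the GO2 arrays alone, so no link between them is read from their shared line. Each window runs from 250 bases before to 50 bases after the annotated start. The sequences are those of RefSeq for GRCm38.p6, written 5′ to 3′ on the strand of the transcript, with capitals marking the letters GGGCGG (GC box) on either strand. The Kcnmb4 window is chr10:116473474-116473773 on the minus strand, and the Kcnmb4os2 window is chr10:116472913-116473212 on the plus strand, with 261 bases between them.
Kcnmb4: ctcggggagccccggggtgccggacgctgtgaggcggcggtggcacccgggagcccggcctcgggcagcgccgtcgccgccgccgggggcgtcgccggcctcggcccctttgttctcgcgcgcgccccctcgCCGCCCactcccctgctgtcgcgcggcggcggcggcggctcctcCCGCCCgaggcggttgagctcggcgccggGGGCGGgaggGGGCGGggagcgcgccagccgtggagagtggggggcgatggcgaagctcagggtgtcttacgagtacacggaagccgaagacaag
Kcnmb4os2: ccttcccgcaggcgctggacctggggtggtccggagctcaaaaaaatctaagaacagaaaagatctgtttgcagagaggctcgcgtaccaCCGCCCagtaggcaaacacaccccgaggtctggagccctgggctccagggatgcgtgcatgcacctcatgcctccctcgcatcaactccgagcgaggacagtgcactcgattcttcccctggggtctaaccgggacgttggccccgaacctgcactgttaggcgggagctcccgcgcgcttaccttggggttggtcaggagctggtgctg

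The Kcnmb4 window holds 4 matches to GGGCGG and 48 CpG dinucleotides, with a G and C content of 79%. Its CpG count is above that of 98.8% of the 32851 windows in the RefSeq table, whose median is 7. The Kcnmb4os2 window holds 1 match and 19 CpG dinucleotides, with a G and C content of 61.7%. Over all windows 35.7% hold at least 1 match to GGGCGG. The letters TATAAA were searched on both strands as well and are found in neither window, and in 13.6% of all windows. These matches describe the letters only.

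None of the genes on either side of Kcnmb4 was called higher. In the reference's gene order, the nearest protein-coding genes are Ptprb, Taf7l2 and Ptprr on one side and Cnot2, Myrfl and Rab3ip on the other. Ptprb, a receptor tyrosine phosphatase known from endothelium, was at -0.13 and 0.03 on the ID8G arrays and at -1.30 and -1.33 on the GO2 arrays, and it was called lower by 1.26 (difference -1.26 ± 0.08, standard error, limma adjusted p = 0.00132). Cnot2, a subunit of the deadenylase complex, had 4 probes compared with differences from 0.07 to 0.42, and Rab3ip had a difference of 0.11, and none of them was called (limma adjusted p from 0.221 to 0.703). Taf7l2 and Myrfl were not well above background on any array, and Ptprr was so on 1 ID8G array.

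**Figure D2:**
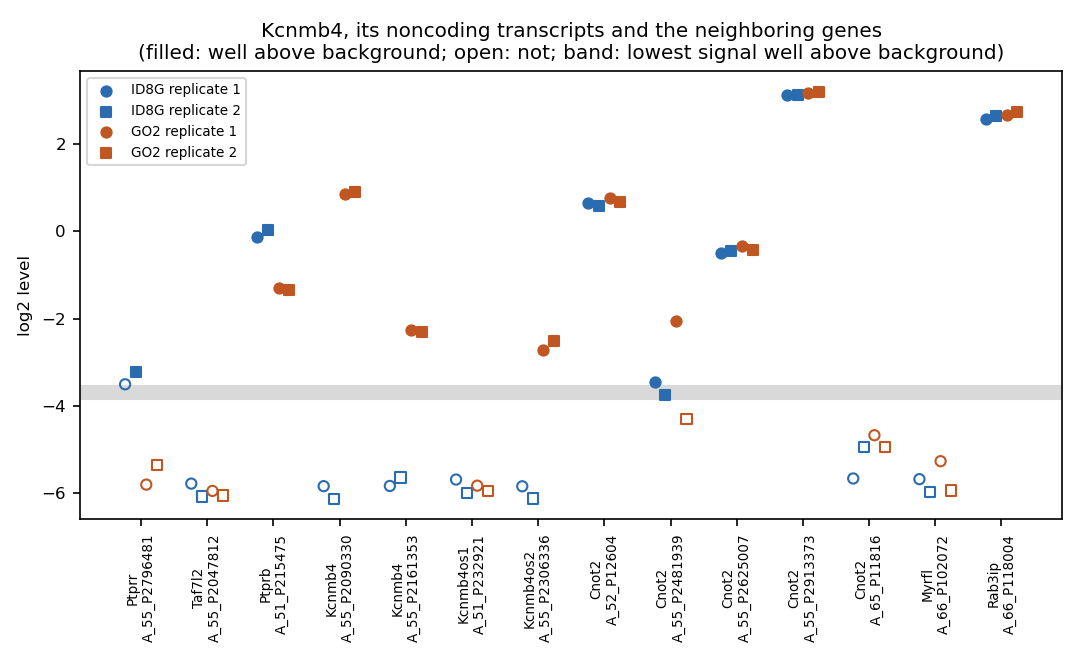
Log2 level on each of the 4 arrays of the probes for Kcnmb4, its noncoding transcripts and the 3 nearest protein-coding genes on each side, in the reference's gene order from left to right. Open points were not well above background. The 2 GO2 points (orange) stand above the 2 ID8G points (blue) for both Kcnmb4 probes and for Kcnmb4os2, and stand below them for Ptprb, by 1.26.

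The pore partner of Kcnmb4 was not well above background in either line. Kcnma1 encodes the pore of the large-conductance channel, to which the Kcnmb subunits bind. All 5 Kcnma1 probes were dim on all 4 arrays, with levels between -6.15 and -5.24. The same was true of both Kcnmb2 probes and of the Kcnmb3 probe, while Kcnmb1 was well above background by 1 of 2 probes on 1 ID8G array, at -3.32. Kcnu1, the related pore known from sperm, was well above background on all arrays, at 2.40 on both ID8G arrays and at 2.58 and 2.53 on the GO2 arrays. Its difference of 0.16 did not pass the test (limma adjusted p = 0.0859, 95% interval 0.01 to 0.30). Signal that is not well above background gives an upper limit for a transcript and not its absence.

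Of the channels gated by calcium or sodium without Kcnmb subunits, Kcnt1 fell and Kcnn4 differed by less than 2-fold. Kcnt1 encodes a sodium-activated potassium channel known from neurons. By the 1 of its 3 probes that could be compared it was at -2.58 and -2.67 in ID8G cells and at -4.05 and -4.67 in GO2 cells, where it was not well above background. This is at least 2.27-fold lower (limma adjusted p = 0.00876), and the other 2 probes were not well above background on any array. The call was lost with normexp (-0.83), with no filter on dim probes (adjusted p = 0.052) and with limma's treat test against a 2-fold difference (adjusted p = 0.272). Kcnn4, the intermediate-conductance calcium-activated channel of red cells, lymphocytes and epithelia, was well above background on all arrays with all 3 probes. Its differences were -0.27, -0.25 and -0.13, and none of them was called. The probe A_55_P2802751 had levels of 3.49 and 3.51 in ID8G cells and of 3.25 and 3.26 in GO2 cells, which passed the adjusted p (0.027, limma) but not the 2-fold minimum. The small-conductance channels Kcnn1, Kcnn2 and Kcnn3 had no probe that could be compared.

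Among the voltage-gated pore subunits, 2 of the 14 probes compared were called lower, Kcnh1 and Kcnc1, and none was called higher (0 at an unadjusted limma p below 0.05 with a 2-fold difference as well). Kcnh1, the ether-à-go-go channel of brain that is also expressed in tumors, was at -1.46 and -1.36 in ID8G cells and at -4.34 and -3.96 in GO2 cells. In GO2 cells neither array was well above background, so Kcnh1 was at least 5.28-fold lower (limma adjusted p = 0.000922). With normexp it was still called, at a smaller difference of -1.43. Kcnh1 had 2 further probes, and neither was well above background on any array.

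Kcnc1, a channel that lets neurons fire at high frequency, was at -1.89 and -1.97 in ID8G cells and at -3.28 and -3.71 in GO2 cells. It fell by 1.57 ± 0.16 (standard error, limma adjusted p = 0.00497), with 1 of 2 GO2 arrays well above background. The call was lost with normexp (-0.81) and with limma's treat test (adjusted p = 0.222). A second Kcnc1 probe was well above background on 1 ID8G array only, and the third on none. The called direction thus rests on a single probe for Kcnh1, for Kcnc1 and for Kcnt1.

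Kcnh2, the pore of the rapid delayed rectifier of the heart, differed in the other direction and stayed just under the 2-fold minimum with both probes. The probe A_55_P2012729 had levels of -1.80 and -1.83 in ID8G cells and of -0.74 and -0.91 in GO2 cells, and A_51_P131175 had -1.86 and -1.92 against -1.02 and -0.99. The arrays of the lines did not overlap for either probe, as for 73.6% of all probes compared. Their differences were 0.99 ± 0.08 and 0.88 ± 0.06 (standard errors, limma adjusted p = 0.00266 and 0.00149), with 95% intervals of 0.77 to 1.20 and 0.73 to 1.04. Without GO2 replicate 2 the difference of the first of these probes was 1.07. The differences of the 2 probes, in the same order, were smaller with normexp (0.79 and 0.59) and with spike-in scaling (0.78 and 0.68).

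The remaining 10 voltage-gated pore probes had differences between -0.63 and 0.25. The lowest of them was Kcnv2, a silent subunit that modifies other pores, at -2.92 and -2.15 in ID8G cells and at -3.37 and -2.97 in GO2 cells (difference -0.63, limma adjusted p = 0.18). It was called lower, at -1.02, only when ID8G replicate 1 was left out. Kcnh6 differed by -0.31 and Kcnh3 by 0.25, and neither passed the test (limma adjusted p = 0.12 and 0.0792). Kcnh4, Kcnd1, Kcna7, Kcng2 and Kcns1 differed by at most 0.15 in size, with the narrowest 95% interval from -0.17 to 0.11 for Kcna7 and the widest from -0.50 to 0.58 for Kcns1. The gene for the pore of the slow delayed rectifier, Kcnq1, was not well above background on any array with any of its 4 probes, and neither were the other Kcnq genes.

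Of the 4 auxiliary subunits of voltage-gated channels that could be compared, Kcnab3 rose and no other was called. Kcnab3 encodes a cytoplasmic beta subunit of the Kcna channels, and its levels were -2.97 and -2.64 in ID8G cells and -1.10 and -1.12 in GO2 cells. It rose by 1.69 ± 0.12 (standard error, limma adjusted p = 0.00211), that is 3.23-fold, with signal well above background on all 4 arrays. With normexp Kcnab3 was still called, at 1.12, and with limma's treat test the call was lost. Kcnab1, of the same beta subunit family, was at 3.41 and 3.37 in ID8G cells and at 2.90 and 2.89 in GO2 cells. Its difference of -0.50 ± 0.05 passed the adjusted p (0.00494, limma) but not the 2-fold minimum. The arrays of the lines did not overlap for either gene, as for 73.6% of all probes compared. Kcnab2 was not well above background on any array. Of the 8 Kcna pore genes, to which these subunits bind, 7 had no probe that could be compared, and Kcna7 differed by -0.03.

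Kcne1, a small membrane subunit that slows the opening of the Kcnq1 pore, was at -5.15 and -3.91 in ID8G cells and at -2.98 and -3.11 in GO2 cells. It was well above background on both GO2 arrays only, with a bound of at least 1.55-fold, and it did not pass the test (limma adjusted p = 0.0646), since the ID8G arrays lay 1.24 apart. Without ID8G replicate 2 it was called, but against the single ID8G array at -5.15, which was not well above background, so that no size can be given. With dim values raised to the lowest signal well above background the difference was 0.63. Kcnip1, a calcium-binding partner of the Kcnd pores, differed by -0.10 (95% interval -0.29 to 0.09), and its partner Kcnd1 by -0.11 (-0.25 to 0.03).

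The inward rectifier genes were mostly dark, with no probe well above background on any array for 10 of 15 genes. Kcnj8 encodes the pore of an ATP-sensitive channel of vascular smooth muscle and pericytes. It was at -2.87 and -1.62 in ID8G cells, which differ by more than the ID8G arrays did for any other called potassium channel probe, and at -5.52 and -5.77 in GO2 cells. The GO2 signal was not well above background, which makes Kcnj8 at least 2.97-fold lower (limma adjusted p = 0.00925). This bound was 4.57-fold without ID8G replicate 1 and 1.92-fold without ID8G replicate 2, and the difference with normexp was -1.09. With values under the lowest signal well above background raised to it, the adjusted p was 0.051, and with no filter on dim probes it was 0.0527, and by limma's treat test it was 0.0663, so the call was lost in each. Its regulatory partner Abcc9, the neighboring gene, was not well above background on any array.

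The other inward rectifiers compared did not pass the test. Kcnj14 was at -4.47 and -3.56 in ID8G cells and at -3.33 and -3.44 in GO2 cells, a difference of 0.63 (limma adjusted p = 0.202). Without ID8G replicate 2 it was called, but against a single ID8G array that was not well above background, and with dim values raised to the lowest signal well above background the difference was 0.16. Kcnj13, a channel of transporting epithelia, differed by -0.41 (95% interval -0.96 to 0.13), and Kcnj15 by 0.29 (-0.31 to 0.90).

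Of the two-pore-domain channels, which carry background current, 3 of 14 genes could be compared and Kcnk5 rose. Kcnk5, a channel opened by alkaline pH that serves volume regulation and bicarbonate transport in kidney, was at -1.55 and -1.75 in ID8G cells and at -0.33 and -0.37 in GO2 cells. The difference of 1.29 ± 0.09 (standard error, limma adjusted p = 0.00168) corresponds to 2.45-fold, with signal well above background on all 4 arrays and no overlap between the lines. Kcnk16, a channel of the pancreas that neighbors Kcnk5 among the protein-coding genes, differed by 0.26 (limma adjusted p = 0.0393), below the 2-fold minimum. Its signal was dim, at -3.36 and -3.42 in ID8G cells and at -3.09 and -3.17 in GO2 cells, with 1 of 2 ID8G arrays well above background. Kcnk16 did not pass the adjusted p with normexp (0.10, limma adjusted p = 0.388), spike-in scaling (0.05, 0.777) or quantile scaling (0.23, 0.0586). Kcnk4, a channel opened by membrane stretch, differed by -0.03 (95% interval -0.22 to 0.16).

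Kcnq1ot1 is the imprinted noncoding RNA transcribed through Kcnq1 on the opposite strand, and its probes were well above background on all arrays for 4 of 5 probes. The probe A_55_P2726757 had levels of 2.88 and 2.95 in ID8G cells and of 2.89 and 2.85 in GO2 cells. The lines overlapped for 2 of the 4 probes, and the differences lay between -0.19 and -0.04 without passing the test (limma adjusted p from 0.0969 to 0.594). Kcnd3os was not well above background on any array.

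**Figure D3:**
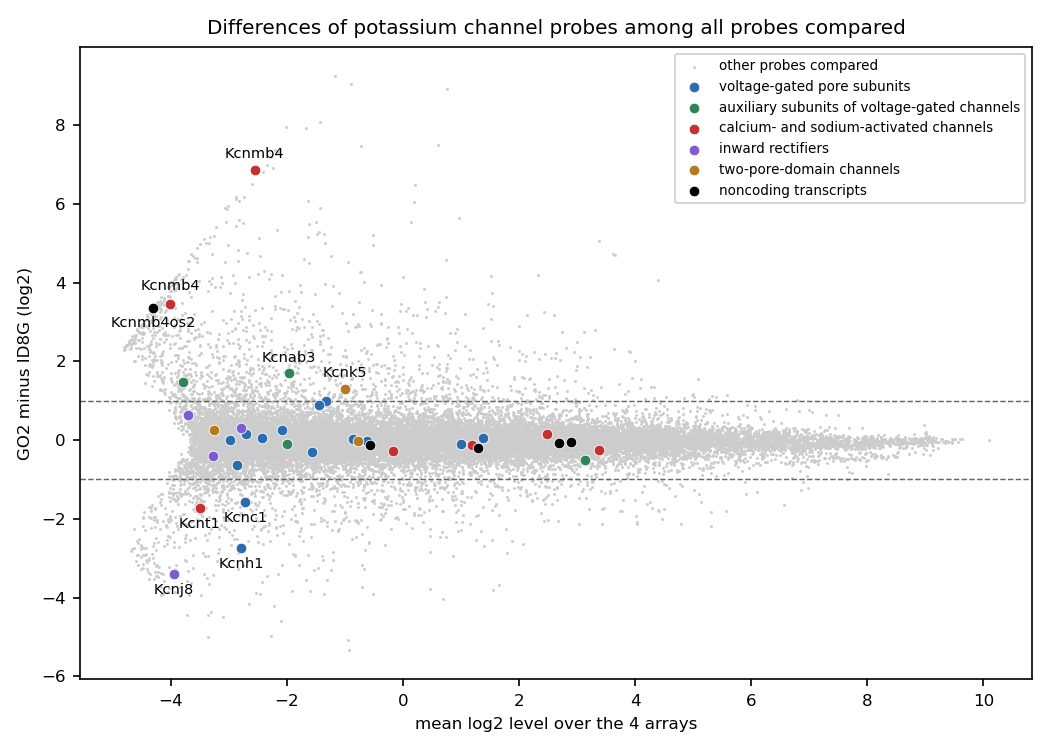
Difference between GO2 and ID8G cells (log2) against the mean log2 level over the 4 arrays, for the 37 potassium channel probes (colored by role) and all other probes compared (gray). Dashed lines mark 2-fold, and names are given for the 9 called probes. The called potassium channel probes lie at mean levels below 0, where those not well above background in 1 line have fitted differences that depend on the background, and the brighter potassium channel probes lie between the dashed lines.

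Some potassium channel signals appeared on 1 of 2 arrays of a line and were not compared. Kcna5 was at -5.69 and -6.0 in ID8G cells and at -5.78 and -3.01 in GO2 cells, and Kcnk10 was at -5.67 and -5.96 against -3.0 and -5.92. Such jumps by a single array, in either replicate, show how far apart 2 arrays of the same line can lie near the background.

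Other genes that move potassium or bind the channels were taken from a list of 49 genes, with pumps, cotransporters, channel partners and their kinases. Of these, 29 genes with 41 probes could be compared, and 2 probes were called higher and 2 lower, with a median difference of -0.08. The other 37 probes were not called, and the share called is close to the 7.84% of all probes.

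Fxyd5, a small regulator of the sodium-potassium pump, was at 2.82 on both ID8G arrays and at 1.03 and 1.07 on the GO2 arrays and fell by 1.77 (limma adjusted p = 0.000303). Fxyd3, of the same family, was at least 2.24-fold higher by 1 of 2 probes (limma adjusted p = 0.00118), and the other probe differed by 0.59. The call of Fxyd3 thus rests on a single probe that the other does not share.

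Markers of the cells were checked on the same arrays. Of 16 markers of ovarian surface epithelium and mesothelium, 12 were compared, and 1 was called higher (Upk3b) and 1 lower (Krt19). Krt8, Krt18 and Msln, well above background on all arrays, passed the adjusted p with smaller differences of -0.55, -0.81 and -0.82 (limma adjusted p = 0.00438, 0.00162 and 0.00176). Cdh2 and Nr2f2, also well above background on all arrays, passed it in the other direction, with 0.55 and 0.41 (limma adjusted p = 0.00546 and 0.00913). Wt1 differed by -0.10, and Krt7, Epcam and Pax8 could not be compared. For the leukocyte list, 4 of 10 genes were compared with no call and differences of at most 0.69 in size. All 4 (Cd14, Cd68, Csf1r and Itgam) were well above background on all 4 arrays by at least 1 probe, Itgam at 4.13 to 4.39. The other 6, with the defining Ptprc and Adgre1 among them, were not well above background on any array. Of 7 lymphocyte and 7 endothelial markers 1 each was compared (Cd3e and Pecam1) with no call and differences of at most 0.30. Markers of other cell types moved with the line. Of 10 fibroblast markers 6 were compared and 5 were called higher, while Dcn differed by -0.63 (limma adjusted p = 0.00309), and the mean level of the list rose from between -1.26 and -1.14 on the ID8G arrays to between 3.37 and 3.43 on the GO2 arrays. That mean includes probes that were not well above background in ID8G cells, so the size of the rise depends on dim signals. Of 8 smooth muscle and pericyte markers 4 were compared and all 4 were higher in at least 1 probe. The brightest Acta2 probe differed by 0.30, below the 2-fold minimum, and Myh11, Des and Rgs5 were not well above background on any array. Of 8 neuron and glia markers 4 were compared and 2 (Map2 and Tubb3) were higher.

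Of 6 cardiac markers 3 were compared and 2 were lower (Tnnt2 and Tnni3), and of 7 adipocyte markers 4 were compared and 2 were lower (Fabp4 and Lpl). The part of these differences in the potassium channel results was not tested. The arrays lay on 1 slide, no spot was saturated, and 27502 to 28841 probes were well above background per array. For 7 spike-in transcripts with usable signal the difference between the lines was 0.15 to 0.28.

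The 9 called potassium channel probes kept their direction under every alternative computed for them. With 2 arrays in each line, permuting them exactly (two-sided) allows no p below 0.333 for any probe, so the calls depend on limma's sharing of variance between probes. The methods' t-test, which takes each probe alone and is named by the study for its experiments in general and not for the arrays, called 0 of these probes after adjustment, and 4 higher and 1 lower at an unadjusted p below 0.05. Kcnmb4 and Kcnmb4os2 had adjusted p values of 0.125 to 0.148 by that test.

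**Figure D4:**
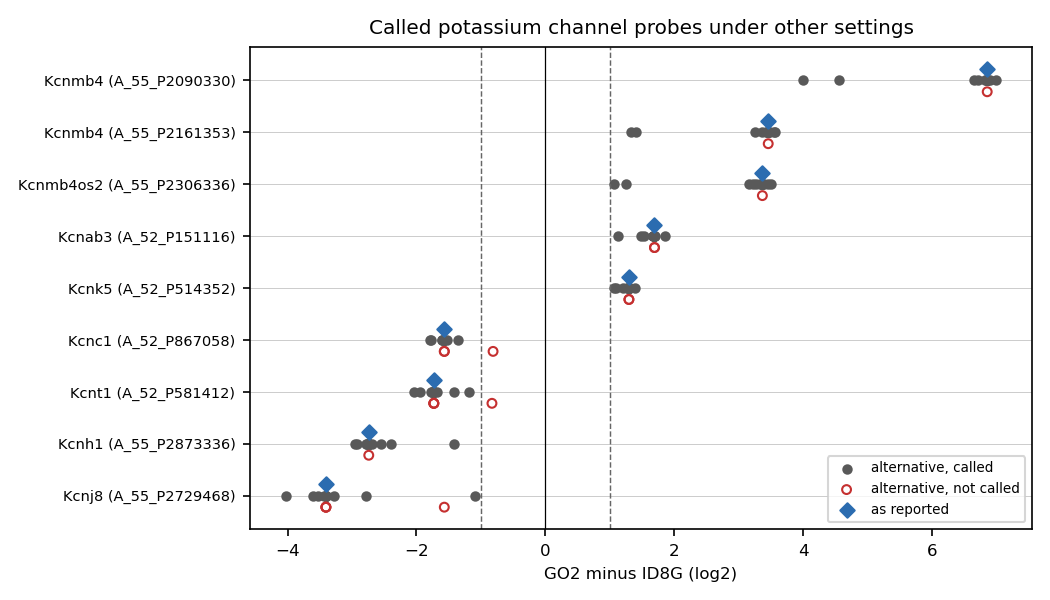
Difference between GO2 and ID8G cells (log2) of the 9 called potassium channel probes as reported (blue diamonds) and under each alternative setting, as gray points where the probe was still called and open red circles where it was not. No point crosses 0, and the smaller values of Kcnmb4 (3.99 and 1.33 with normexp background correction for its 2 probes) come from that setting and from raising dim values to the lowest signal well above background.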

How the data were processed

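Total RNA of 2 ID8G and 2 GO2 samples was labeled with Cy3 and hybridized to 4 one-color Agilent mouse arrays of 1 slide. The authors deposited spot intensity values from Feature Extraction 11.5.1.1, which had subtracted the background but not scaled the arrays to each other. They also deposited a table of log2 values from GeneSpring, which match the log2 intensity scaled to the 75th percentile and centered on the median of each probe, and which served as an alternative only.

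Spots marked as outliers were dropped (132 to 195 per array), spots of a probe were averaged, and the 75th percentile of non-control probes was subtracted on the log2 scale. That percentile was 627 to 675 intensity units, so the arrays were similarly bright. Precision is limited by having 2 arrays per line. limma 3.58.1 in R 4.3.3 was fitted to 28368 probes with cell line as the only term and Benjamini-Hochberg adjustment, and the procedure was tested on simulated data. Of the tested probes 24 lack a value on an array, none of them a potassium channel probe.

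Where both arrays of a line were not well above background, the fold is a bound. Per dim array the higher of its lowest signal well above background and the probe's own signal was averaged and set against the mean of the brighter line. Dim signals can therefore be compared only as limits, and these limits are approximate. On ID8G replicate 1, Kcnk16 at -3.36 was not well above background, although the lowest signal that was lay at -3.53.

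Symbols came from the RefSeq accession of each probe through a table for GRCm38.p6, which named 32994 probes. The scanner software's record names mm9 for the array design, so coordinates are given only for the RefSeq promoter sequences. All 97 reference symbols of this form were on the array.

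The genes and lists were chosen with earlier results of these data known. The rule for naming took called genes, genes with an adjusted p below 0.05 but a smaller difference, the 5 largest uncalled differences in each direction, genes measured on all arrays, called potassium handling genes and up to 3 genes of each marker list. Dark channels, partners and neighbors of Kcnmb4 and further markers were named after their values were seen. Results for some genes are not reported here.

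Alternatives were normexp background correction, quantile, median and spike-in scaling, 2 other filters on dim probes, a floor, an intensity trend, the methods' t-test with Welch's correction (stated for the study's experiments in general, with no test named for the arrays), the replicate block, the deposited log2 table, outlier spots kept, 2 other thresholds, probes averaged to 1 value per gene, and leaving out every replicate in turn. Figures were drawn with matplotlib 3.10.9.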

Additional observations from a re-analysis of the deposited data

How the results depend on the processing

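The 9 called potassium channel probes were all called again with quantile scaling, median centering, spike-in scaling, an intensity trend, outlier spots kept, the deposited log2 table and each replicate left out. Of 385 values computed for 22 named probes under alternatives, 354 kept their direction and side of the threshold, 19 lost a call, 11 gained one and 1 changed sign, which was Kcnj15 with -0.012 without ID8G replicate 2 (-0.012 to 0.60 with each replicate left out). Spike-in scaling moved the median difference of all probes from -0.02 to -0.23. For 7 of the 9 calls 1 line had at least 1 array with dim signal, and all 9 depend on the variance shared between probes.

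With normexp the channel probes called lower fell from 4 to 2 (Kcnc1 at -0.81 and Kcnt1 at -0.83), all probes called were 818 higher and 517 lower instead of 1277 and 947, and 1 potassium handling probe was higher. Spike-in scaling gave 1434 probes lower, with 6 handling probes lower, and added Kcne1. Restricting the test to probes above background on every array left 2 channel probes higher and 0 lower (limma, also 2 and 0 at an unadjusted p below 0.05), 666 and 606 over all probes, and 0 and 1 handling probes (0 and 1 unadjusted). The methods' t-test gave 0 and 0 channel probes (4 and 1 unadjusted), 0 and 3 over all probes (1001 and 728 unadjusted), and 0 and 0 handling probes (2 and 2 unadjusted). Without the 2-fold minimum there were 8 channel probes higher and 6 lower, 4835 and 5348 over all probes, and 6 and 14 handling probes. With limma treat there were 3 channel probes higher and 1 lower (both Kcnmb4 probes, Kcnmb4os2 and Kcnh1), and 748 and 440 over all probes. With no filter Kcnj8 and Kcnt1 lost their call and Kcnh7 and Kcnip2 gained one. The cause of these shifts was not tested.

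With each replicate left out, where the lone array is assumed to vary like the other line's, the channel probes called were 5 to 7 higher and 4 to 5 lower, and the handling probes called lower were 2 to 4, with 4 without GO2 replicate 1. The replicate numbers do not pair the arrays (correlation of same-numbered deviations 0.03), and with the replicate block 5 channel probes were higher and 4 lower, against 1251 and 936 over all probes. The slide as a block was not run because there is 1 slide.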
